A study of Mus musculus with 18 samples.

Results

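*Ptch1*, *Smo*, *Gli1* and *Gli3* encode the receptor, the signal transducer and transcription factors of the Sonic Hedgehog (Shh) pathway. They were followed through 18 libraries from mouse embryos at E11.5. The 4 genes were chosen by name from the genes whose translation efficiency (TE) the study had called low in the mesoderm (*Ptch1*, *Smo*, *Gli1*) or different between the neural tube (NT) and the forelimb bud (FL) (*Ptch1*, *Gli3*). All 4 were found among the 12064 genes of the mesoderm table and the 11231 genes of the NT and FL table. Because these contrasts selected the members, their values in them are given as a description with no test, and tests are given only for *Gli3* in the mesoderm and for *Smo* and *Gli1* in NT and FL.

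RNA-Seq, which measures the mRNA, and Ribo-Seq, which counts ribosome-protected fragments (RPFs), were run in parallel on 3 tissues with 3 replicates of each of the 6 conditions. Mesoderm was the GFP+ cell population sorted from embryos that carried R26-mTmGflox/+ together with Tg(T-cre)1LWD/J/+, in which Cre under a *T* (Brachyury) promoter switches a membrane reporter to GFP in cells that descend from the primitive streak. This lineage gives rise to somites, limb mesenchyme, kidney precursors, blood and vessels, so the sorted cells are a mixture. NT, from the hind limb level up to the rhombomeres, and FL were microdissected from embryos of the FVB strain and held all cell types of the dissected piece. Both were taken from the same embryos, but no source used here says that equal replicate numbers mark the same embryos. The comparison of FL with NT therefore treated their libraries as independent. Cycloheximide, which halts ribosomes on the mRNA, was present during preparation of all samples. Library types of a replicate were made from divided material, and replicates are described as biological. In such bulk samples, fewer cells of a type and less RNA per cell cannot be told apart.

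In the Shh pathway, Patched holds Smoothened in check until a Hedgehog ligand binds. Smoothened then enters the primary cilium and the balance of Gli proteins moves from repressors to activators. *Gli1* acts as an activator and is itself induced by the signal, as is *Ptch1*, whereas *Gli3* is the main source of repressor. In the neural tube Shh from the notochord and floor plate patterns ventral cell types, and in the limb bud Shh from the posterior zone of polarizing activity patterns the digits.

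The genes lie on 3 chromosomes of GRCm38 (mm10). By GENCODE, *Ptch1* (uc007qxv.1) spans chr13:63508328-63565735 on the minus strand with 1434 codons in 23 exons, *Gli3* (uc007pns.1) chr13:15463980-15730026 on the plus strand with 1583 codons in 15 exons, *Gli1* (uc007hjf.1) chr10:127329882-127341974 on the minus strand with 1111 codons in 13 exons, and *Smo* (uc009bef.2) chr6:29735694-29761365 on the plus strand with 793 codons in 12 exons. The authors counted reads on the coding sequences of canonical UCSC isoforms, which may differ from these, without the first 15 and last 5 codons. The start of translation of each gene is shown because ribosomes enter the counted stretch from there; each window runs from 6 bases before the start codon to 24 bases from its first base, lies in 1 exon and covers 5′ UTR and coding sequence, with the start codon in capitals.
Ptch1: ggcaacATGgcctcggctggtaacgccgcc
Smo: ttggccATGgccgctggccgccccgtgcgt
Gli1: gacgccATGttcaatccaatgactccacca
Gli3: gacattATGgaggcccaggcccacagctct
The windows lie at chr13:63565497-63565526 (*Ptch1*), chr6:29736005-29736034 (*Smo*), chr10:127338497-127338526 (*Gli1*) and chr13:15478035-15478064 (*Gli3*), on the strand of each gene. All 4 have a purine at position -3, as do 79.6% of 21473 genes with a complete coding transcript, and all but *Gli1* have G at position +4, as do 48.8%. These windows are those of the annotated transcripts. Annotated 5′ UTRs can differ from the 5′ ends used in embryonic tissue. Among the members the study mapped those ends for *Ptch1*, *Smo* and *Gli1*, and they were not analysed here.

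The libraries held from 11000015 to 50136443 reads on the tabled genes. Neural markers summed to between 61344 and 85638 normalized reads in NT RNA-Seq and to at most 14017 elsewhere, for the 7 of 13 markers that could be named. The 5 named limb mesenchyme markers summed to between 27788 and 34214 in FL, 16990 and 19541 in the mesoderm, and at most 2210 in NT, so each dissected tissue carried its own markers. *Tcf15* and *Myf5* of the paraxial mesoderm summed to between 717 and 977 in the mesoderm. The mesoderm table was normalized apart from that of NT and FL, so levels in it are set beside the others with no test. Red cell and macrophage genes were present in all tissues. Sums for these 6 genes in Ribo-Seq were 133157, 169890 and 87963 in FL replicates 1, 2 and 3 and 51792, 51583 and 68933 in NT, and for 5 genes in the mesoderm 12338, 93642 and 21934. Their part in any result below was not tested.

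A Ribo-Seq library stood apart in FL. Across all genes, replicate 3 had a Pearson's r of 0.886 with replicate 1 and 0.896 with replicate 2, whereas replicates 1 and 2 had 0.976 with each other. In NT, Ribo-Seq replicate 3 had 0.933 and 0.934 with the others, which had 0.989. The RNA-Seq libraries of FL did not split in this way (0.983 to 0.987). In NT, RNA-Seq replicate 1 had 0.946 and 0.949 with the others, which had 0.97 with each other. In the mesoderm, RNA-Seq replicate 1 had 0.939 and 0.953 with the others, which had 0.987. Mesoderm Ribo-Seq replicates 1 and 2 had 0.919 with each other, and replicate 3 had 0.961 with each of them. TE spread over genes with an SD of 1.59 and 1.54 on the log2 scale in FL replicates 1 and 2, and 0.864 in replicate 3. Values of the members in these tissues are therefore given for each replicate.

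*Ptch1*, the Shh receptor, had abundant mRNA in every sample. RNA-Seq gave 5189, 6282 and 6040 normalized reads in mesoderm replicates 1 to 3, 5277, 6045 and 4510 in NT, and 4089, 4338 and 4375 in FL, so that 89.6% or more of genes had less mRNA in each library. RPFs on *Ptch1* were 1820, 1085 and 1784 in the mesoderm, 2966, 3170 and 1922 in NT, and 346, 405 and 1916 in FL. FL replicates 1 and 2 were low, at 216 and 190 reads, and FL replicate 3 lay beside NT replicate 3. The mRNA of FL sat under every NT value by a small margin, while RPFs of NT and FL met in replicate 3.

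*Smo* encodes the 7-pass membrane protein that relays the signal once Patched is occupied. Its mRNA was at 6393, 12556 and 11894 normalized reads in the mesoderm, 4849, 3602 and 4260 in NT, and 8900, 9311 and 8596 in FL. RPFs were 2135, 2925 and 3184 in the mesoderm, 1251, 1300 and 1880 in NT, and 1958, 2781 and 2907 in FL. NT and FL did not overlap in either library type, with FL higher in both. Mesoderm replicate 1 was low in mRNA against the other mesoderm replicates.

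*Gli1*, the target and activator, showed the widest gap in mRNA between NT and FL among the members. Its mRNA was at 4963, 4517 and 4231 normalized reads in the mesoderm, 745, 494 and 472 in NT, and 2771, 2557 and 2861 in FL. RPFs were 846, 707 and 779 in the mesoderm, 181, 206 and 183 in NT, and 520, 561 and 838 in FL. Values in NT were far below those of FL in both library types, and RPFs in NT rested on 126 to 253 reads.

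*Gli3*, the repressor, had mRNA at 6269, 5971 and 5549 normalized reads in the mesoderm, 3244, 4102 and 3158 in NT, and 6372, 6568 and 5792 in FL. RPFs were 3696, 1355 and 2398 in the mesoderm, 2814, 3186 and 1554 in NT, and 874, 1206 and 4543 in FL. Every FL value of mRNA lay above NT. RPFs of FL replicates 1 and 2 lay below every NT value, and that of FL replicate 3 above them all.

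**Figure D1:**
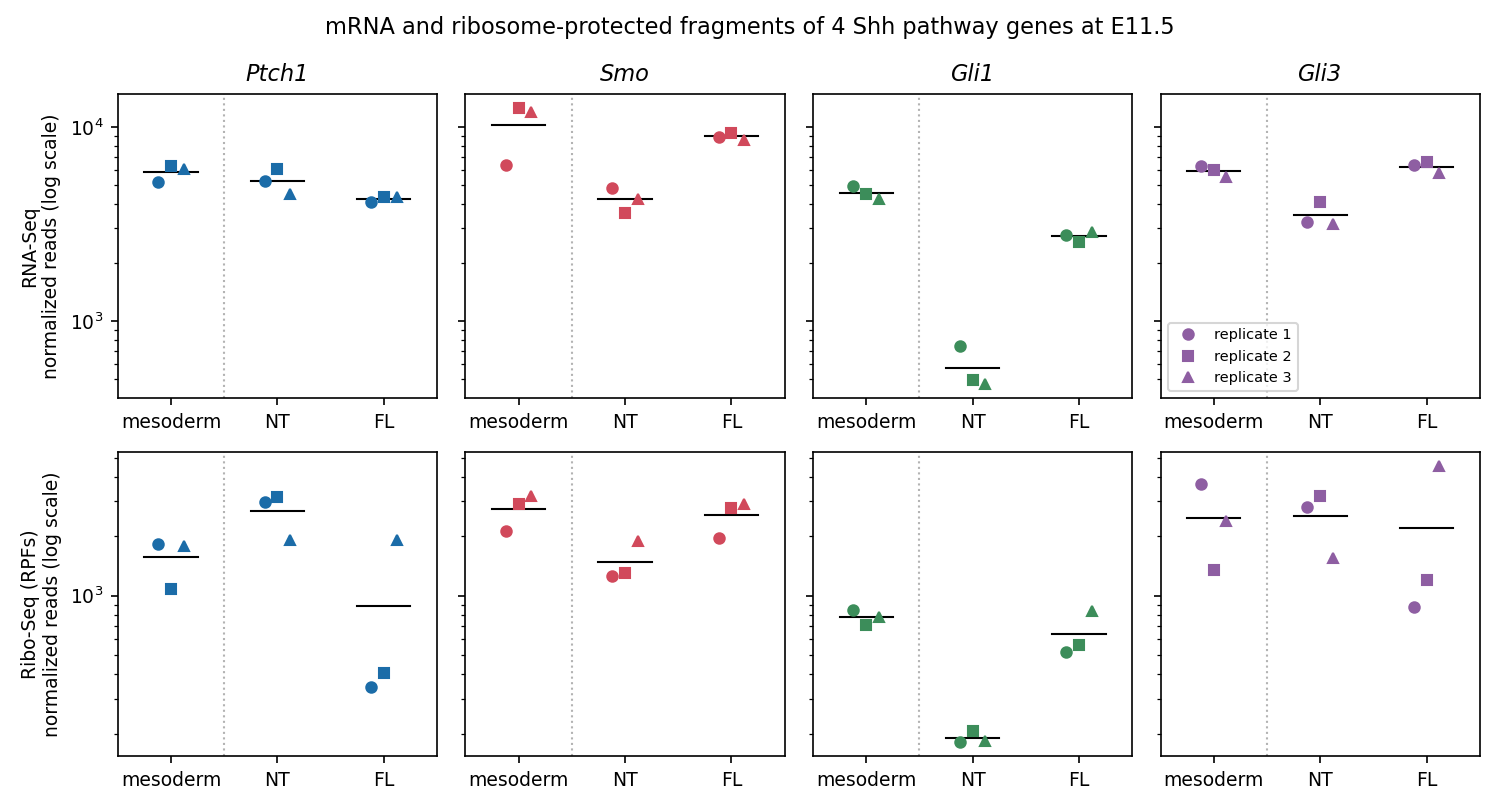
Normalized reads (log scale) of the 4 genes in RNA-Seq (upper row) and Ribo-Seq (lower row), with 1 point per library, a symbol per replicate number and a bar at the mean; the dotted line separates mesoderm from NT and FL, whose table was normalized separately. FL Ribo-Seq replicate 3 (triangle) lies far above replicates 1 and 2 for *Ptch1* (1916 against 346 and 405) and *Gli3* (4543 against 874 and 1206).

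Levels were then divided by the GENCODE coding length, less the uncounted codons, to set the genes side by side within a tissue. *Smo* mRNA was highest in all 3 tissues, with 4433 ± 1459 normalized reads per kb in the mesoderm, 1827 ± 269 in NT and 3853 ± 155 in FL (SD, n = 3). In the mesoderm *Gli1*, *Ptch1* and *Gli3* followed with 1396 ± 113, 1376 ± 135 and 1265 ± 77.1, and did not differ beyond their spread. In NT the order was *Smo*, *Ptch1* (1244 ± 181), *Gli3* (747 ± 111) and *Gli1* (174 ± 46.3), with no overlap between neighbours. In FL it was *Smo*, *Gli3* (1332 ± 86.1), *Ptch1* (1006 ± 36.6) and *Gli1* (834 ± 47.7), again without overlap.

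On the same scale RPFs gave a different picture. *Smo* led in the mesoderm with 1185 ± 236 normalized RPFs per kb, ahead of *Gli3* (529 ± 250) without overlap. In NT *Smo* (637 ± 151), *Ptch1* (633 ± 158) and *Gli3* (537 ± 182) overlapped, and *Gli1* lay under them at 58.0 ± 4.25. In FL the neighbouring ranges all overlapped, from *Smo* at 1099 ± 222 to *Gli1* at 195 ± 52.9, since *Ptch1* and *Gli3* spanned 81.6 to 452 and 186 to 969 per kb over the replicates.

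TE was taken as log2 RPFs less log2 mRNA of the same replicate, less the median of all genes in that pair of libraries, so that 0 is the median gene. In the mesoderm *Gli1* had the lowest TE of the 4, at -2.61, -2.68 and -2.48 in replicates 1 to 3, and its mean was 6.01-fold under the median gene. *Ptch1* stood at -1.57, -2.54 and -1.79 and *Smo* at -1.64, -2.11 and -1.94, with means of -1.97 ± 0.51 and -1.89 ± 0.24 (SD, n = 3). These 3 genes were selected on this contrast, in which 10.9% of genes were called TE-low (limma on log2(normalized reads + 1), 3-fold or more under the median with an adjusted p under 0.05) and 1.17% TE-high.

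*Gli3*, which the mesoderm contrast did not select, could be tested there. Its centred log2 TE was -0.82, -2.14 and -1.25, below the median gene in all 3 replicates. Its TE was 2.65-fold under the median (log2 -1.41, 95% interval -1.94 to -0.87, limma adjusted p = 0.0004735), which passed the p threshold but not the 3-fold limit, so *Gli3* was not called TE-low. Without replicate 1 the value was -1.69 and the gene was called. Among the members *Gli3* lay just outside the 3-fold limit in the mesoderm, and *Smo*, at 3.72-fold, just inside it.

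In NT the TE of *Smo* was -1.95, -1.50 and -1.25 and that of *Gli1* -2.03, -1.29 and -1.43. Both lay under the median gene in 3 of 3 replicates and close to the 3-fold limit, which is -1.58 on this scale. *Smo* had a log2 TE of -1.56 (95% interval -2.09 to -1.04, adjusted p = 0.004093) and *Gli1* one of -1.58 (-2.24 to -0.92, adjusted p = 0.008127) in limma, and neither reached 3-fold. For *Gli1* the call turned with small changes of processing, to -1.60 and TE-low when genes of low level were left out. Leaving out replicate 2 or 3 gave calls for both genes, with -1.61 and -1.74 for *Smo* and -1.74 and -1.68 for *Gli1*. In NT 4.30% of genes were called TE-low and 0.427% TE-high.

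NT values of the other members are a description. *Ptch1* was at -0.82, -0.96 and -1.30 and *Gli3* at -0.20, -0.39 and -1.09, so both were lowest in replicate 3 on this scale. By rank *Ptch1* was lowest in replicate 2, with 13.08% of genes below it against 14.85% in replicate 3. *Gli3* in NT replicate 1 had the highest TE of any member in any replicate, with 40.1% of genes below it.

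In FL *Smo* and *Gli1* were called TE-low. *Smo* stood at -2.18, -1.76 and -1.58 in replicates 1 to 3, and its log2 TE was -1.83 (95% interval -2.44 to -1.23, limma adjusted p = 0.005495). *Gli1* stood at -2.41, -2.20 and -1.79, with -2.13 (-2.73 to -1.53, adjusted p = 0.005495). Without FL replicate 3 the values were -1.98 and -2.32, and both calls held. In FL 13.4% of genes were called TE-low and 6.28% TE-high.

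*Ptch1* and *Gli3*, given without a test, split by replicate in FL. *Ptch1* was at -3.56 and -3.43 in replicates 1 and 2, 11.8-fold and 10.8-fold under the median gene, and at -1.21 in replicate 3, 2.31-fold under it. *Gli3* was at -2.86 and -2.46 in replicates 1 and 2, and at -0.37 in replicate 3. The mean over replicates was -2.73 ± 1.32 for *Ptch1* and -1.90 ± 1.34 for *Gli3* (SD, n = 3), and -3.50 and -2.66 without replicate 3.

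**Figure D2:**
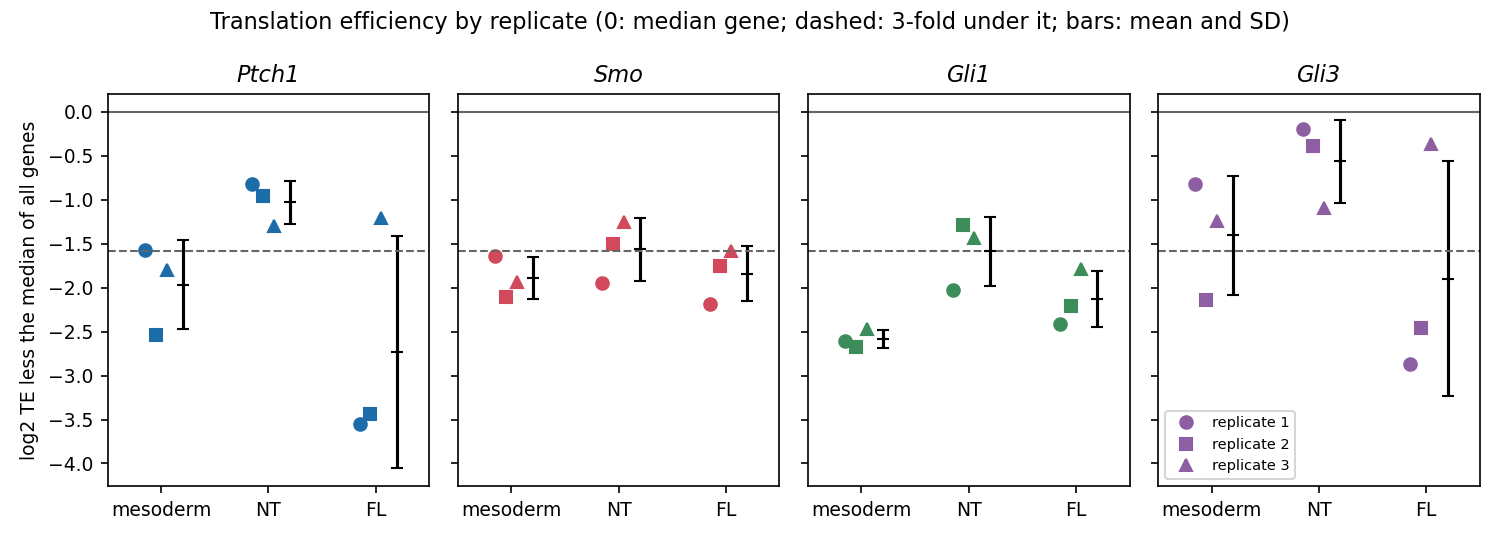
Log2 TE of the 4 genes less the median of all genes, by tissue, with a symbol per replicate, the mean and SD (n = 3) as bars, a solid line at the median gene and a dashed line 3-fold under it. All 36 values lie under 0; *Gli1* is tightest in the mesoderm (SD 0.10), and *Ptch1* and *Gli3* spread widest in FL (SD 1.32 and 1.34), where replicate 3 lies apart.

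FL was compared with NT to ask whether the members differed between organs in mRNA, in RPFs or in TE. *Gli1* and *Smo* were both higher in FL. *Gli1* mRNA was 4.88-fold higher in FL (log2 2.29 ± 0.24 SE, 95% interval 3.41-fold to 6.99-fold, limma adjusted p = 7.948e-06), with every FL library above every NT library. *Smo* mRNA was 2.12-fold higher (log2 1.09 ± 0.22 SE, 1.52-fold to 2.96-fold, adjusted p = 0.002514), also without overlap. In this contrast 10.3% of genes were called higher in FL and 12.3% lower, at an adjusted p under 0.05.

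RPFs of these genes rose as well. *Gli1* RPFs were 3.29-fold higher in FL (log2 1.72 ± 0.24 SE, limma adjusted p = 8.745e-05) and *Smo* RPFs 1.73-fold higher (log2 0.79 ± 0.22 SE, adjusted p = 0.01194). Here 22.6% of genes were called higher in FL and 22.7% lower. Without replicate 3 in both tissues *Gli1* RPFs differed by 1.48 and *Smo* RPFs by 0.87 on the log2 scale, and both remained called. The call for *Smo* RPFs was lost without NT replicate 1, NT replicate 2 or FL replicate 2, with 0.68, 0.71 and 0.72 (adjusted p = 0.06168, 0.06313 and 0.08141).

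The TE of *Smo* and *Gli1* was not called different between FL and NT. *Smo* differed by -0.30 (95% interval -0.97 to 0.38, adjusted p = 0.5536) and *Gli1* by -0.57 (-1.30 to 0.16, adjusted p = 0.3333) in the limma interaction of library type with tissue. The intervals reach from a TE in FL of 0.509 of that in NT to 1.30 for *Smo*, and from 0.406 to 1.12 for *Gli1*, so a difference of 2-fold was within reach for *Gli1*. FL minus NT was negative in all 3 same-numbered pairs of both genes, at -0.23, -0.26 and -0.33 for *Smo* and at -0.38, -0.91 and -0.35 for *Gli1*. Equal numbers are not known to mark the same embryos, and the ranges of the tissues overlapped. *Smo* spanned -1.95 to -1.25 in NT and -2.18 to -1.58 in FL, and *Gli1* -2.03 to -1.29 and -2.41 to -1.79. Without replicate 3 of both tissues the differences were -0.25 and -0.65 (adjusted p = 0.477 and 0.1185), and neither was called. Only 0.276% of genes were called lower in FL in this contrast and 0.125% higher, for which a 2-fold difference with an adjusted p under 0.2 was required. These shares stand for 31 and 14 genes, against 5 and 1 with the replicate number as a block over both tissues.

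*Ptch1* and *Gli3* were selected on the difference in TE, which is described here. Over all replicates FL minus NT in centred log2 TE was -1.70 for *Ptch1* (3.26-fold lower in FL) and -1.33 for *Gli3* (2.52-fold lower). By replicate number, FL minus NT was -2.73, -2.47 and 0.09 for *Ptch1* and -2.67, -2.07 and 0.73 for *Gli3*. Replicates 1 and 2 alone gave -2.60 (6.08-fold) and -2.37 (5.15-fold). Between the replicates numbered 3 the TE of *Ptch1* was nearly equal and that of *Gli3* was higher in FL. Against the other NT replicates, FL replicate 3 of *Ptch1* was lower (-1.21 against -0.82 and -0.96). FL replicate 3 of *Gli3* lay below NT replicate 1 and near NT replicate 2 (-0.37 against -0.20 and -0.39).

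In replicates 1 and 2 RPFs of both genes differed more than mRNA. Over all replicates this held for *Ptch1*, with -2.02 in RPFs and -0.30 in mRNA, but not for *Gli3*, with -0.51 and 0.84. *Ptch1* mRNA in FL less NT was -0.37, -0.48 and -0.04 in replicates 1 to 3, whereas RPFs differed by -3.09, -2.97 and -0.01. *Gli3* mRNA was higher in FL in all 3, by 0.97, 0.68 and 0.87, whereas RPFs differed by -1.69, -1.40 and 1.55. The mRNA and RPFs of *Gli3* thus pointed in opposite directions in replicates 1 and 2 and in the same direction in replicate 3.

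**Figure D3:**
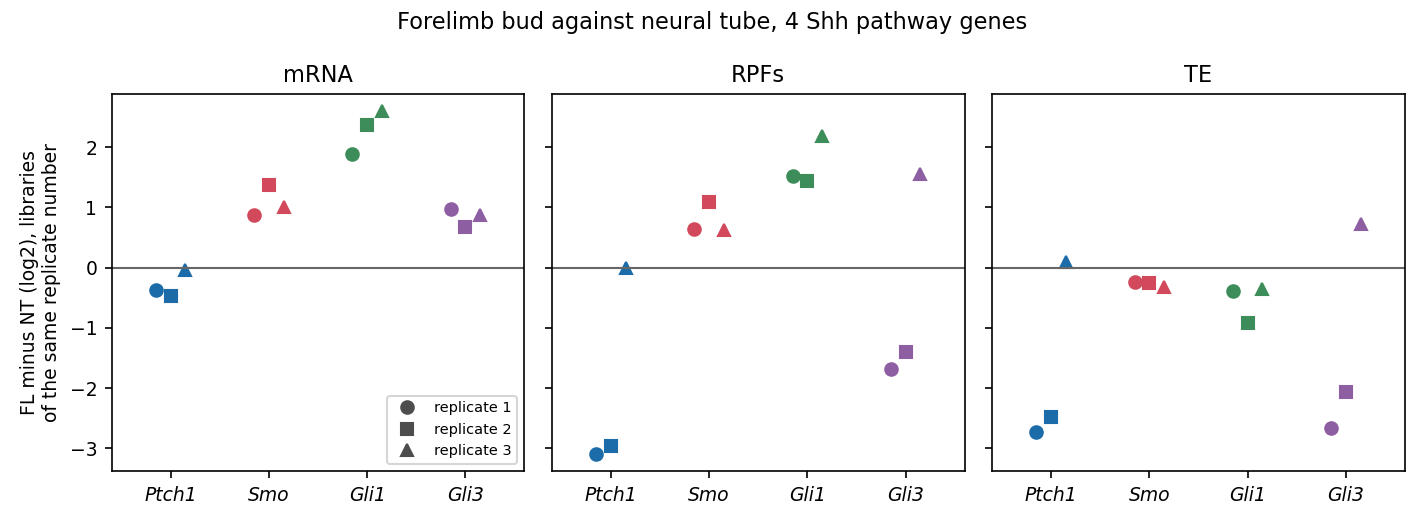
FL minus NT on the log2 scale for mRNA, RPFs and centred TE, with 1 point per same-numbered pair of libraries. *Smo* and *Gli1* keep 1 direction in all 3 such pairs of each panel, though their TE ranges in NT and FL overlap. For *Ptch1* and *Gli3* replicate 3 leaves the others in RPFs and TE, with TE at 0.09 and 0.73 against -2.73 to -2.07.

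The size of this departure was set against all genes. FL Ribo-Seq replicate 3 exceeded the mean of replicates 1 and 2 by 2.35 for *Ptch1* (5.10-fold) and 2.14 for *Gli3* (4.42-fold), more than 98.1% and 97.2% of genes. For *Smo* and *Gli1* it did so by 0.32 and 0.63, more than 62.5% and 72.2% of genes. In NT, Ribo-Seq replicate 3 lay below the mean of the other replicates, at -0.67 for *Ptch1* and -0.95 for *Gli3*, with 16.5% and 10.1% of genes lower. In the mesoderm the lowest RPFs of both genes were in replicate 2, which stood at -0.73 and -1.14 against the others and had the highest Ribo-Seq sum of blood genes.

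Coding length moved with this departure. Over the 3086 genes that could be matched to a symbol and a coding length, Spearman's rho between length and the excess of FL Ribo-Seq replicate 3 was 0.793, and 0.063 for the same measure in RNA-Seq. These points are genes of the same libraries and mostly genes the study had called, so the coefficient is a description. Genes of 1400 to 1600 codons, the range that holds *Ptch1* and *Gli3*, had a median FL minus NT TE of -2.44, -1.87 and 0.45 in replicates 1 to 3 (110 genes). The quartiles were -2.87 to -1.82 in replicate 1, -2.32 to -1.52 in replicate 2 and 0.03 to 0.83 in replicate 3. *Gli3* lay within the quartiles in each replicate, and so did *Ptch1* in replicates 1 and 3, whereas in replicate 2 its -2.47 was lower. The part of coding length in the TE difference of these genes was not tested.

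**Figure D4:**
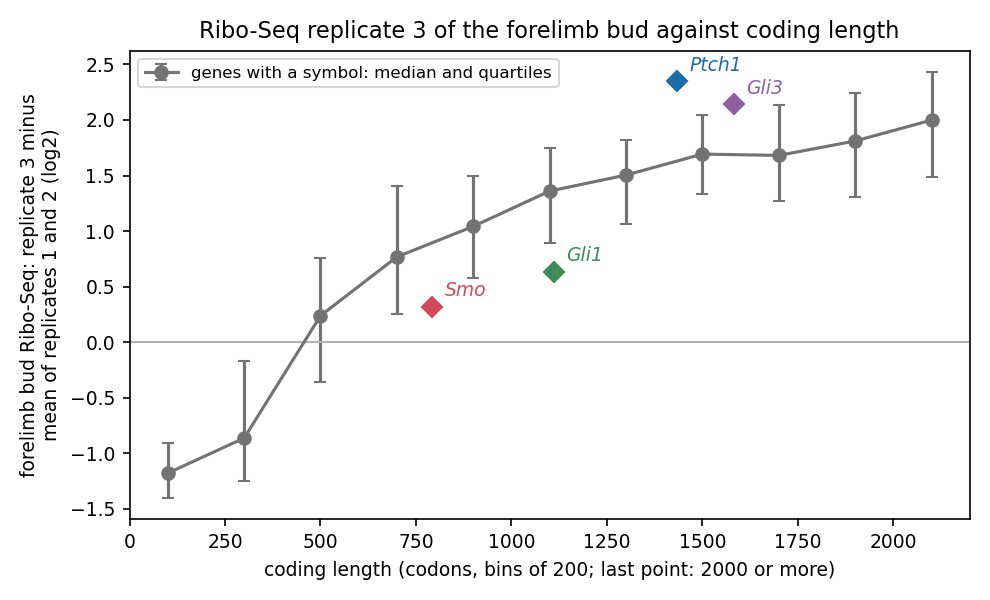
Excess of FL Ribo-Seq replicate 3 over the mean of replicates 1 and 2 (log2) against coding length in codons, as the median and quartiles of genes in bins of 200 codons (grey; the last point holds all genes of 2000 codons or more) and for the 4 members (diamonds). The median climbs from -1.18 in the shortest bin to 2.00 in the longest; *Ptch1* (2.35) and *Gli3* (2.14) lie above the upper quartile of their bin, and *Gli1* (0.63) below the lower quartile of its bin.

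The other genes of the pathway were taken from fixed lists, of which only genes with a symbol could be read. Most symbols belong to genes the study had called, so the background shares are printed beside the counts and nothing is read from them. Of 11 genes of signal reception and relay, 3 were called TE-low in the mesoderm, 0 in NT and 4 in FL, and 0 TE-high, with median log2 TE of -1.40, -0.64 and -1.37. Over all genes 10.9%, 4.30% and 13.4% were called TE-low. By replicate the median of the 11 genes was -1.11, -1.86 and -1.14 in the mesoderm, -0.54, -0.54 and -0.86 in NT and -1.69, -1.54 and -0.65 in FL, where replicate 3 was again the highest. Without replicate 3 the count in FL was 7, and the counts in the mesoderm and NT were 3 and 0. In that setting 2046 of 11231 genes were called TE-low in FL, 435 of 11231 in NT and 1404 of 12064 in the mesoderm. Of all 11231 genes 31 were called lower in TE in FL than in NT and 14 higher. Without replicate 3 of both tissues 2504 were lower and 2329 higher. Of the 11 genes, 0 were called different over all replicates and 7 were called lower in FL without replicate 3 of both tissues. FL minus NT had a median of -1.30, -0.96 and 0.28 by replicate number. Those called in the mesoderm included *Adrbk2*, a kinase of the family that phosphorylates Smoothened, and *Dyrk2*, a kinase that acts on Gli proteins, at -2.39 and -1.95. The subunits of protein kinase A, which phosphorylates Gli proteins toward the repressor form, lay at or above the median gene in the mesoderm, with *Prkaca* at 0.41, *Prkacb* at 0.47 and *Prkar1a* at 0.88 in centred log2 TE.

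The genes of the primary cilium were read in the same way. Of 16 tested in the mesoderm 9 were called TE-low, of 17 in NT 0, and of 17 in FL 11, with medians of -1.72, -0.85 and -2.05, beside the same 10.9%, 4.30% and 13.4% of all genes. By replicate the medians were -1.52, -1.92 and -1.48 in the mesoderm, 0.01, -0.79 and -1.65 in NT and -2.60, -2.48 and -1.02 in FL. Without replicate 3 the count in FL was 14, beside 2046 of 11231 over all genes. The counts in the mesoderm and NT were 9 and 0, beside 1404 of 12064 and 435 of 11231. *Evc* and *Evc2*, whose products bind Smoothened at the base of the cilium, were at -2.41 and -1.97 in the mesoderm. Their mRNA was higher in FL than in NT by 2.54-fold and 2.40-fold (limma adjusted p = 0.008836 and 0.01255). Over all replicates 0.276% of all genes were called lower in FL than in NT in TE and 0.125% higher. None of the 17 was called. FL minus NT in TE had a median of -2.79, -1.94 and 0.52 by replicate number, so replicate 3 turned direction. Genes of 1000 codons or more, of any function, had -2.39, -1.90 and 0.49 (935 genes), and the part of coding length in the values of the list was not tested. Without replicate 3 of both tissues 14 of the 17 were called lower in FL and 2 higher, as were 2504 and 2329 of all genes.

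Of 4 readable targets of the pathway, 2 were called higher in mRNA in FL, beside 10.3% of all genes. *Hoxd13* and *Hoxd11*, Hox genes of the posterior and distal limb, were higher by 71.4-fold and 14.5-fold (limma adjusted p = 1.341e-07 and 1.132e-06). *Mycn* had -0.13 in mRNA and rose by 0.93 in RPFs (adjusted p = 0.01941), all on the log2 scale. These are values over all replicates. Without replicate 3 of both tissues the TE of *Mycn* was higher in FL by 1.44, against 1.06 and no call over all replicates. In that setting, chosen after the data were seen, 2329 of 11231 genes were called higher in FL. Most symbols belong to genes the study had called, so the TE values of *Mycn* are a description.

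The genes nearest to each member in TE, over the 9 replicate pairs of the 3 tissues, were ranked by Euclidean distance in centred log2 TE. For *Ptch1* they were *Mical3*, *Med1* and *Rhpn1* at 0.690, 0.740 and 0.889, for *Smo* *Scap*, *B4galnt4* and *Rnpepl1* at 0.407, 0.642 and 0.678, for *Gli1* *Whrn*, *Irak1* and *Vps9d1* at 0.647, 0.682 and 0.735, and for *Gli3* *Tns1*, *Vwa8* and *Lpin2* at 0.384, 0.518 and 0.538. The median distance to a compared gene was between 3.33 and 3.90. Among the members *Smo* and *Gli1* were the closest pair at 1.39 and *Gli1* and *Gli3* the farthest at 3.40, and *Ptch1* and *Gli3* were 1.98 apart. Many other genes lay closer. By rank of distance *Gli1* was number 173 from *Smo* and *Smo* number 82 from *Gli1*. *Gli3* was number 426 from *Ptch1* and number 1287 from *Gli1*.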

How the data were processed

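RNA-Seq and Ribo-Seq of E11.5 mesoderm, NT and FL were analysed (18 libraries). The authors trimmed adapters with cutadapt, aligned with Bowtie2 to canonical UCSC isoforms of mm10 (versions are not given in the sources used here), kept unique reads, assigned RPFs to the A site and divided reads on the CDS by DESeq size. The deposited signal values are these normalized reads. Values were multiples of 1 read in each library, 100% of them within 0.1 read, so whole reads were recovered for alternatives.

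Tests used limma 3.58.1 (R 4.3.3) with a trended variance on log2(normalized reads + 1), which understates changes of low genes, and Benjamini-Hochberg adjustment over all genes of a table. Tables were normalized separately, so none was tested against the other. One-tissue fits had the replicate as a block, since library types shared material. Deviations of same-numbered libraries correlated at 0.743, 0.579 and 0.573 in the mesoderm. They did so much less in the other tissues, at -0.281, 0.349 and 0.0465 in NT and at 0.0486, 0.116 and 0.0918 in FL. FL minus NT was fitted to 12 libraries without a block.

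Members and lists were chosen with earlier results of these data known. Named genes were the members, list genes with a symbol (1 is not reported here), and the 3 nearest in TE among 2987 genes. Symbols, from the paper's supplements, matched 28.3% of mesoderm genes and 29.1% of NT and FL genes. Coding lengths came from GENCODE M21 and may differ from the isoforms used. Grouping by coding length and list counts without replicate 3 were added after the data were seen. Functions were tested on simulated data. Alternatives were other pseudocounts, a filter on low values, edgeR 4.0.16, DESeq2 1.42.0, blocks, centring and leaving out replicates.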

Additional observations from a re-analysis of the deposited data

How the results depend on the processing

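Of 143 alternative values of the tested members, 128 kept their direction and their side of the threshold, and none turned direction. Of 167 described values, 164 moved by less than the spread between replicates. That spread was wide for *Ptch1* and *Gli3* in FL (SD 1.32 and 1.34), so large moves stayed within it. Their FL minus NT in TE was -1.72 and -1.36 in the main fit, -1.27 and -1.01 in edgeR and -1.29 and -1.02 in DESeq2. Leaving out replicates gave -2.61 to -1.22 for *Ptch1* and -2.37 to -0.70 for *Gli3*. In NT *Gli1* was called TE-low with 0.1 added (-1.59), without genes averaging under 100 normalized reads (-1.60), in edgeR (-1.59) and in DESeq2 (-1.59), against -1.58. The cause was not tested, but the limit is -1.58. Leaving out replicates gave log2 TE from -1.74 to -1.37 for *Smo* and from -1.74 to -1.36 for *Gli1* in NT and from -1.69 to -1.03 for *Gli3* in the mesoderm. Between FL and NT it gave 0.94 to 1.19 for *Smo* mRNA, 0.64 to 0.98 for *Smo* RPFs and -1.54 to 0.073 for *Gli3* RPFs, which turned direction without replicate 1 of both tissues. The calls of *Smo* were lost without replicate 2 of both tissues in mRNA (0.94) and RPFs (0.64), and without replicate 1 of both in RPFs (0.86). Leaving out a replicate number in both tissues was chosen after the data were seen.

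The number of genes called different in TE between FL and NT rested on few libraries. It was 31 lower and 14 higher in FL, 286 and 570 in DESeq2, 5 and 1 with a replicate block over both tissues, and 3 and 1 with a replicate block within each tissue. Leaving out replicates gave 0 to 2504 lower and 0 to 2329 higher, the largest without replicate 3 of both tissues. It was 0 in both directions in limma without NT replicate 1, with 624 genes at an unadjusted p under 0.05, and without FL replicate 1 or 2, with 477 and 464. Elsewhere it gave TE-high genes from 72 to 271 in the mesoderm, 37 to 88 in NT and 387 to 1408 in FL, mRNA lower in FL from 725 to 1736 and higher from 448 to 1519, and RPFs lower from 1037 to 3850 and higher from 649 to 4021. Embryos gave both tissues, but no source used here ties equal numbers to 1 set of embryos, and deviations of same-numbered libraries correlated at -0.294, -0.502 and -0.578 in Ribo-Seq and at -0.0221, -0.215 and -0.237 in RNA-Seq. The replicate block changed no call of *Smo* or *Gli1*, and fits of 1 tissue without it changed no call of a tested member. Depth limits *Gli1* in NT, whose RPFs rested on 126 to 253 reads. The alternative transcript of *Ptch1* raised its mRNA per kb from 1376 to 1524 in the mesoderm.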

Other observations

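TE followed coding length to different degrees in the replicates of 1 tissue. Spearman's rho between centred log2 TE and the number of codons was -0.484, -0.621 and -0.522 in mesoderm replicates 1 to 3 (3209 genes), 0.0121, -0.316 and -0.53 in NT and -0.741, -0.744 and -0.475 in FL (3086 genes each). The points of each coefficient are genes of 1 pair of libraries, most of them called by the study, so these are descriptions. *Ptch1* and *Gli3*, with the longest coding sequences of the 4 members, had their lowest TE in each tissue in the replicates with the lowest rho, which were replicate 2 in the mesoderm, replicate 3 in NT and replicates 1 and 2 in FL. *Smo*, the shortest, had its lowest TE in replicate 2 of the mesoderm, at -2.11, and in replicate 1 of NT and FL, at -1.95 and -2.18. *Gli1*, with 1111 codons, had its lowest TE in the same replicates, at -2.68 in replicate 2 of the mesoderm and at -2.03 and -2.41 in replicate 1 of NT and FL. These lows are on the log2 scale, whose spread over genes differed between replicates. By rank *Smo* had 11.05% of genes below it in FL replicate 1 and 5.244% in replicate 3, and *Gli1* 8.77% and 3.579%. In the mesoderm *Smo* had 8.19% below it in replicate 2 and 5.57% in replicate 3, and *Gli1* 3.73% and 2.246%. *Ptch1* in NT had 13.08% below it in replicate 2 and 14.85% in replicate 3. In NT replicate 1, where rho was the highest of the tissue, *Smo* and *Gli1* were at their lowest and *Ptch1* and *Gli3* at their highest. Against the mean of the other NT replicates, *Gli1* stood there at 0.62 in mRNA and -0.10 in RPFs (log2). *Smo* stood at 0.31 in mRNA and -0.32 in RPFs. The mRNA shift of that replicate had a rho of -0.406 with codons over genes. Genes of 1000 codons or more had a median centred log2 TE of -2.57, -2.46 and -0.954 in FL replicates 1 to 3 and of -0.322, -0.61 and -1.46 in NT (935 genes).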
